A study of Mus musculus with 15 samples.

Results

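Organic ion and drug transporters move charged metabolites, toxins and medicines across cell membranes, and here they were taken as every gene of 6 groups named by symbol. The groups were the Slc22a family of organic cation, anion and carnitine carriers, the Slc47a family of proton-coupled cation exporters, the Slco family of organic anion transporting polypeptides, the Abcb and Abcc families of ATP-driven pumps, and the pump Abcg2. The symbol rule found 63 genes of the 27179 in each table: 25 of Slc22a, 2 of Slc47a, 15 of Slco, 10 of Abcb, 10 of Abcc and Abcg2. It also takes in pumps that carry no drugs, such as the mitochondrial Abcb8 and the potassium channel subunits Abcc8 and Abcc9.

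The cells were mouse induced renal tubular epithelial cells (iRECs), a line made from fibroblasts by introducing kidney transcription factors, among them Hnf4a, Emx2 and Pax8. Every group carried these factors, grew in the same renal epithelial growth medium and was harvested on day 7. The 5 groups of 3 libraries each were 2D plate culture, 3D culture in a gel of Matrigel (rich in basement membrane proteins), of fibrin (the clotting protein) or of collagen I, and inkjet bioprinted cells in a mix of fibrin with collagen I, which are named printed cultures. Replicates 1, 2 and 3 of every group came from passages 35, 48 and 53 of 1 line, so they are not separate animals. The files name the printed table for collagen only, while the labels of its libraries give both gels.

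In the proximal tubule, carriers of the basolateral membrane take up organic anions and cations from blood, and pumps and exchangers of the apical membrane pass them into urine. Anion uptake by OAT1 (Slc22a6) and OAT3 (Slc22a8) is driven by exchange for dicarboxylates, and cation uptake by carriers such as OCT2 (Slc22a2) by the membrane potential. Export uses MATE1 (Slc47a1), P-glycoprotein (Abcb1a and Abcb1b in the mouse), MRP2 and MRP4 (Abcc2 and Abcc4) and BCRP (Abcg2).

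The values come from the authors' 4 tables of results, 1 for each microenvironment against the same 2D libraries, which hold no value per library. Neither library depth nor the direction within a replicate can be read from them. A base mean is the average of normalized read counts over the libraries of a table, and those of the 63 genes summed to between 76053 and 87265. A gene is said to have risen or fallen where the authors' adjusted p was under 0.05, and ± gives a standard error, which the authors deposited with each fold change. Of 9 proximal tubule markers, the sodium-coupled carriers Slc34a1, Slc5a2 and Slc5a12 and the water channel Aqp1 had base means under 5 in all 4 tables, while megalin (Lrp2) was at 19301 to 24583 in the authors' deposited tables. Among the immune markers 4 of 5 stayed under 5, and the fifth, the lysosomal Cd68, rose in the printed cultures at log2 1.60 ± 0.23 (adjusted p = 2.1e-09) in the authors' deposited table. The summed implied level of 6 fibroblast markers was 339 in 2D and ran from 78.1 in collagen I to 252 in Matrigel. Of those with an adjusted p, 2 of 3 fell in fibrin (3.11% of all genes) and 1 of 3 in collagen I (4.65%). In Matrigel 0 of 4 fell (2.32%) and in the printed cultures 0 of 3 (0.675%). The 9 proximal tubule markers summed to 42147 in 2D and 60172 in Matrigel, where Lrp2 and Cubn rose, and to 41860 to 46832 in the other 3, with Anpep lower in fibrin and collagen I. The 5 epithelial markers summed to 43778 in 2D, 56058 in Matrigel (Cdh1 and Epcam rose), 36055 in fibrin, 39665 in collagen I (Krt8 fell) and 80976 in the printed cultures (Krt19 rose). The 6 markers of loop, distal tubule and collecting duct summed to 128 in 2D and 45.3 to 110 elsewhere, and Scnn1g fell in all 4 tables. Of this list 2 of 2 genes with an adjusted p fell in collagen I, against 4.65% of all genes. What part shifts in these markers have in the transporter values was not tested. In bulk RNA, fewer cells that express a gene and less RNA per cell cannot be told apart.

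The start regions of 3 neighbouring pump genes are shown first, because these genes had their highest fold changes in the printed cultures. Abcb1a and Abcb1b encode the 2 mouse P-glycoproteins, which expel many lipophilic drugs, and Abcb4 encodes the phospholipid translocator of bile canaliculi. They follow each other on chromosome 5 of GRCm38, with Abcb1a at 8567091 to 8748575, Abcb1b at 8798147 to 8866314 and Abcb4 at 8893614 to 8959226. The fourth window belongs to Slc22a4, the carnitine and ergothioneine carrier OCTN1 on chromosome 11, the 1 transporter that fell. Each window holds 250 bases before and 50 bases from a RefSeq start on, on the gene's own strand (GRCm38.p6). The starts used for Abcb4 and Slc22a4 lie inside the span given for the gene, since other transcripts begin further out. Capitals mark matches, on either strand, to an antioxidant response element (TGACNNNGC), a hypoxia response element (ACGTG) or an aryl hydrocarbon element (GCGTG).
Abcb1a, chr5:8566841-8567140, plus strand: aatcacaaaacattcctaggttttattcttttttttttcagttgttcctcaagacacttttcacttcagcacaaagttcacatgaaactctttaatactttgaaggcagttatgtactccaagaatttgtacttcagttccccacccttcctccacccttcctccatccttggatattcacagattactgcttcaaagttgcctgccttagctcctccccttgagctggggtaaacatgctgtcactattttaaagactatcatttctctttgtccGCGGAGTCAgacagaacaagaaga
Abcb1b, chr5:8797897-8798196, plus strand: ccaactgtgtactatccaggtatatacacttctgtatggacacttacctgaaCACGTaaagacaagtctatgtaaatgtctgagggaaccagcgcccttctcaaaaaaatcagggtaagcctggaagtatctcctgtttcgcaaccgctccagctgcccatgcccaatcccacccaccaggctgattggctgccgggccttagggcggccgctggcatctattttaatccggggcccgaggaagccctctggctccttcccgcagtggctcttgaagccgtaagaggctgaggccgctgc
Abcb4, chr5:8893471-8893770, plus strand: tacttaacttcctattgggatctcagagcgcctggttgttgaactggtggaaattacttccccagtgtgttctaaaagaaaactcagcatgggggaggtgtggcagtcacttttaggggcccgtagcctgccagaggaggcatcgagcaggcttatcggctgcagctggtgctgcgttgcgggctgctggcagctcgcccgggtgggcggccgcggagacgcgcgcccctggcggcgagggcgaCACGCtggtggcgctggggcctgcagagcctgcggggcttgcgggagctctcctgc
Slc22a4, chr11:54028055-54028354, minus strand: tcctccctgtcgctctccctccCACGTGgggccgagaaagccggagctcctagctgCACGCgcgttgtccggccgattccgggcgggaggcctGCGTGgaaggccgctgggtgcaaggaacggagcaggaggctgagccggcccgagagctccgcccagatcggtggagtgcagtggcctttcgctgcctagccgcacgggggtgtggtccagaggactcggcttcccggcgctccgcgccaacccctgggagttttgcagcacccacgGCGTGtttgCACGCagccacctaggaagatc

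The 4 windows have little in common in these letters. Abcb1a holds 1 antioxidant match, 26 bases after the start, Abcb1b 1 hypoxia match and Abcb4 1 aryl hydrocarbon match. In Slc22a4 both readings of a CACGTG stretch match the hypoxia element and overlap, and there are 4 aryl hydrocarbon matches. GC content was 40.3% for Abcb1a, 55.0% for Abcb1b, 64.0% for Abcb4 and 69.0% for Slc22a4. RefSeq windows were at hand for 51 of the 63 genes, of which 9 held the antioxidant letters, against 14.0% of all genes with a window. The hypoxia letters stood in 7 of the 51 (21.8% of all genes) and the aryl hydrocarbon letters in 11 (35.2%). An HNF4 site (CAAAGTCCA) was matched in 0 of the 51 (0.555%). A match describes the letters and says nothing of binding.

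Which transporters the cells express was read from levels implied by the tables. The level in 2D follows from a base mean and its fold change, and it was taken as the median over the 4 tables. In 23 members every table had a base mean of at least 100, and there the SD of the 4 estimates had a median of 0.0451 (log2) and a maximum of 0.289, for Abcb1b. Of the 63 genes, 8 were listed at 0 in all tables (Slc22a16, Slc22a22, Slc22a29, Slco1a4, Slco1c1, Slco6b1, Slco6c1 and Slco6d1), and 18 more stayed under 5. A base mean of 10 was reached in at least 1 table by 36 genes and a base mean of 100 by 24.

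The leading transporters were a prostaglandin carrier, 3 Abcc pumps and the carnitine and ergothioneine carrier Slc22a4. Per kilobase of exon, the prostaglandin carrier Slco2a1 had the highest implied level in 2D, 1991 normalized reads, at the percentile 90.4 of all genes with a length. It was followed by the glutathione conjugate pump Abcc1 (MRP1) at 1952 per kilobase, Abcc4 at 1748, Slc22a4 at 1522 and the nucleotide pump Abcc5 at 1069. The SD over tables of these 5 levels was 0.0496, 0.0601, 0.0455, 0.0491 and 0.0423 on the log2 scale. It compares estimates from the same 2D libraries and does not measure the spread between cultures. Whether Slco2a1 and Abcc1 differ in level was not tested. Abcg2 was at 900 per kilobase, the carnitine carrier Slc22a5 (OCTN2) at 498 and Slc47a1 at 424. The 5 members with the highest base mean in each table, not scaled by length, made up between 67.9% and 69.9% of the members' summed base means. They need not be the 5 that lead per kilobase.

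The uptake carriers OAT1, OAT3 and OCT2 were at or near 0. In the authors' deposited tables the base mean of Slc22a6 was 0.313 to 0.980, that of Slc22a8 0.639 to 3.62 and that of Slc22a2 1.60 to 3.29. Of other members, Slc47a2 was at 1.30 to 4.36, Slco1a1 at 1.07 to 2.34, and the basolateral Slco4c1 at 0 in 3 of the authors' deposited tables and 0.333 in the fourth. The dicarboxylate carrier Slc13a3, whose gradient drives OAT1 and OAT3, was at 0.313 to 3.26 in the authors' deposited tables, and the proton exchanger Slc9a3 at 0.402 to 0.740. For none of these did the authors give an adjusted p. The anion carrier Slc22a7 (OAT2) was measurable, with base means of 12.0 to 41.6 in the authors' deposited tables.

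**Figure D1:**
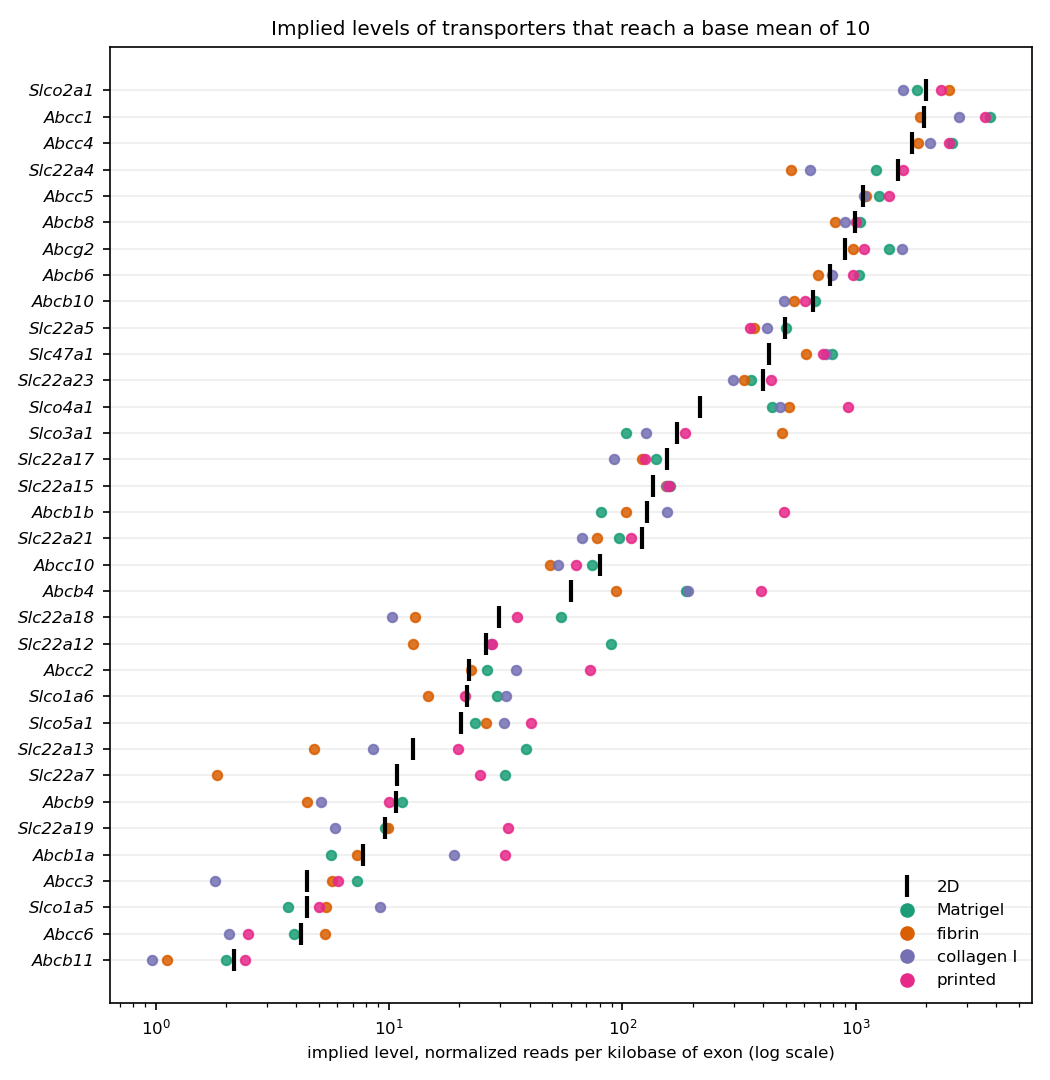
Implied level of transporters that reached a base mean of 10, in normalized reads per kilobase of exon on a log axis. Black ticks give 2D and coloured points the 4 microenvironments, and the collagen I point of Slc22a7 is missing because its implied level was not above 0. Slco2a1, Abcc1, Abcc4, Slc22a4 and Abcc5 lead, and Abcb4, Abcb1b and Slco4a1 have printed points far to the right of their 2D tick.

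The comparisons with 2D asked what each gel or printing changed. In all, 13 of the 36 transporters with an adjusted p changed in at least 1 table: 2 in all 4, 5 in 2 and 6 in 1. The share of all genes that changed in at least 1 table was not computed, so this pooled count has no background. Of the 13, only Slc22a4 fell. The members were chosen with earlier results of these data known, so the shares of all genes are given as description. In Matrigel 8 of 36 members rose (22.2%), against 4.03% of all genes tested, and 0 fell, against 2.32%. With an unadjusted p under 0.05 in the authors' DESeq2 fit, 11 were higher (9.33% of all genes) and 2 lower (6.83%) there. In fibrin 3 of 36 rose, against 5.19% of all genes, and 1 fell, against 3.11%, which is near the background. In collagen I 5 of 35 rose (14.3%), against 6.51%, and 1 fell, against 4.65%. In the printed cultures 6 of 36 rose (16.7%), against 2.51%, and 0 fell, against 0.675%. At an unadjusted p under 0.05 by DESeq2, 8 were higher in the printed cultures (7.42% of all genes) and 1 was lower (4.01%).

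Pooled over the families, which went in different directions, the median log2 fold change of the members with an adjusted p was 0.12 in Matrigel, -0.10 in fibrin, 0.01 in collagen I and 0.11 in the printed cultures. Over all genes tested the same medians were -0.00, 0.00, 0.01 and 0.01. By family, the 12 Slc22a genes with an adjusted p had medians of 0.11 in Matrigel, -0.31 in fibrin, -0.40 in collagen I and -0.01 in the printed cultures. The 6 Slco genes had 0.12, 0.36, 0.60 and 0.11 in the same order, the 8 or 9 Abcb genes -0.02, -0.21, 0.20 and 0.02, and the 7 Abcc genes 0.25, 0.08, 0.13 and 0.33. The 4 comparisons share their 2D libraries, so a chance shift in those would touch all of them.

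**Figure D2:**
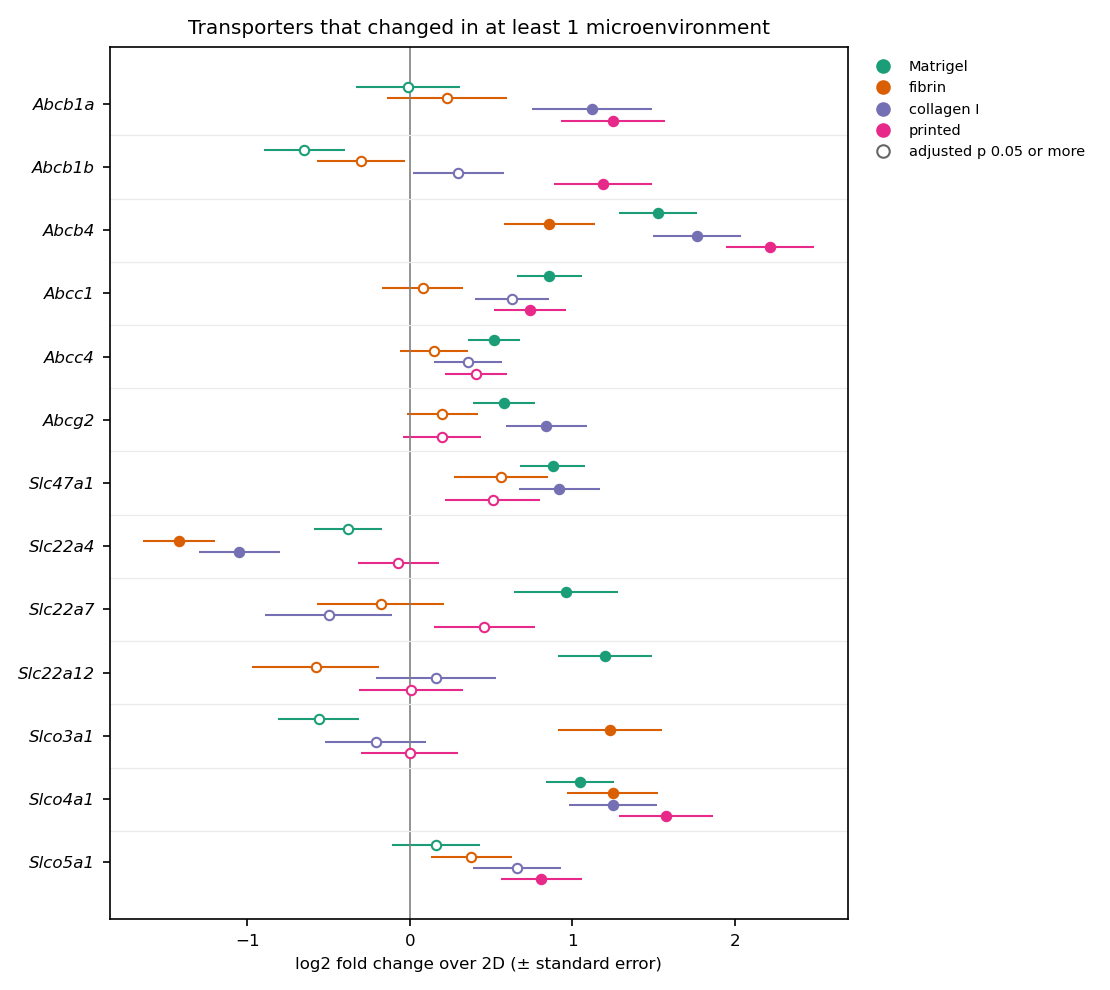
Deposited log2 fold change over 2D, with the authors' standard error, of the 13 transporters that changed in at least 1 microenvironment. Filled points had an adjusted p under 0.05. Abcb4 and Slco4a1 are filled in all 4 rows, and only Slc22a4 has filled points left of 0.

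Among the apical and canalicular pumps, Abcb4 rose in every microenvironment. The authors' deposited tables gave log2 1.53 ± 0.24 in Matrigel (adjusted p = 2.6e-08), 0.86 ± 0.28 in fibrin (adjusted p = 0.031), 1.77 ± 0.27 in collagen I (adjusted p = 5.0e-09) and 2.22 ± 0.27 in the printed cultures (adjusted p = 3.1e-13). Its implied level was 245 normalized reads in 2D, 762 in Matrigel, 382 in fibrin, 779 in collagen I and 1595 in the printed cultures. The 2 P-glycoprotein genes changed in fewer tables. Abcb1b rose only in the printed table of the authors, deposited at log2 1.19 ± 0.30 (adjusted p = 0.0054). In the authors' deposited tables it stood at -0.65 ± 0.25 in Matrigel (adjusted p = 0.11), -0.30 ± 0.27 in fibrin (adjusted p = 0.65) and 0.30 ± 0.28 in collagen I (adjusted p = 0.56). Abcb1a rose in collagen I at 1.12 ± 0.37 (adjusted p = 0.028) and in the printed cultures at 1.25 ± 0.32 (adjusted p = 0.0054) in the authors' deposited tables. It was much the rarer transcript, with an implied 7.71 normalized reads per kilobase in 2D against 127 for Abcb1b.

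For these 3 genes the deposited printed fold changes were smaller than the ratios of implied levels. With the 2D level of the other 3 tables, the printed levels correspond to log2 ratios of 2.13 for Abcb1a, 1.96 for Abcb1b and 2.77 for Abcb4. Whether the authors' fit moved fold changes towards 0 is not given in the sources and was not tested. Fold changes and errors were small even at base means near 0. Slc22a2 in Matrigel, at a base mean of 1.60, had log2 -0.08 ± 0.10. Slc22a20 in the printed cultures, at 0.333, had 0.05 ± 0.10. The implied 2D levels and the differences between microenvironments use the deposited fold changes, so any such shift enters them too. Under an empirical null, which takes the spread of the test statistic from the middle part of all genes, the calls of Abcb4 in fibrin (adjusted p = 0.34) and Abcb1a in collagen I (adjusted p = 0.61) were lost. The genes are close copies: 17.0% of the 50-base stretches of the longest Abcb1a transcript and 18.3% of those of Abcb1b also occur in other genes, nearly all in each other, against 3.42% for Abcb4. Reads of the 2 P-glycoprotein genes are therefore uncertain in their assignment.

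**Figure D3:**
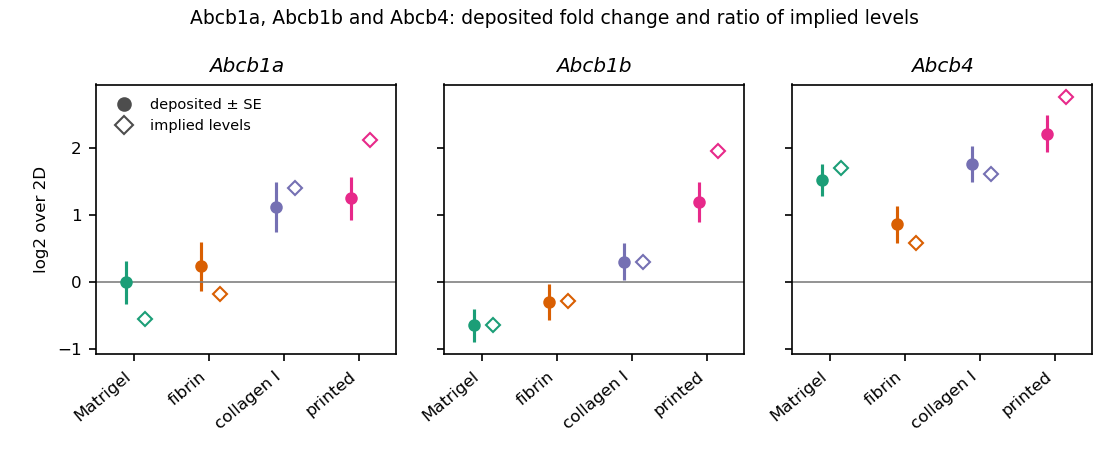
Log2 change over 2D of Abcb1a, Abcb1b and Abcb4 in the 4 microenvironments. Circles with bars are deposited fold changes with their standard errors, and open diamonds are ratios of implied levels. In the printed cultures the diamonds (2.13, 1.96 and 2.77) lie above the circles (1.25, 1.19 and 2.22).

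Of the pumps for conjugates and for urate, Abcc1, Abcc4 and Abcg2 rose in Matrigel, Abcg2 also in collagen I and Abcc1 also in the printed cultures. None of the 3 differed between microenvironments in the test of the difference given further on. Abcc1 was in Matrigel at log2 0.86 ± 0.20 (adjusted p = 6.9e-04) and in the printed cultures at 0.74 ± 0.22 (adjusted p = 0.028) in the authors' deposited tables. It was at 0.63 ± 0.23 in collagen I (adjusted p = 0.054) and 0.08 ± 0.25 in fibrin (adjusted p = 0.93) in the authors' deposited tables. Abcc4, which exports cyclic nucleotides and urate, rose in Matrigel by 0.52 ± 0.16 (adjusted p = 0.031), and its values in the other 3 deposited tables of the authors were 0.15 to 0.41. Abcg2, which also exports urate, rose in Matrigel at 0.58 ± 0.19 (adjusted p = 0.035) and in collagen I at 0.84 ± 0.25 (adjusted p = 0.013), and was at 0.20 ± 0.22 in fibrin and 0.20 ± 0.24 in the printed cultures in the authors' deposited tables. Abcc2, the apical conjugate pump, passed in none, with 0.94 ± 0.31 (adjusted p = 0.058) in the authors' deposited table for the printed cultures and 0.69 ± 0.28 (adjusted p = 0.090) in that for collagen I. The log2 ratio of implied levels of Abcc2 in the printed cultures was 1.72. Abcc5, Abcc3 and Abcc6 did not pass either. In the authors' deposited tables Abcc5 had the steadiest values, 0.10 to 0.28, while Abcc3 ran from -0.18 to 0.50 and Abcc6 from -0.69 to -0.11. Abcc10 was below 0 in all 4 of the authors' deposited tables, lowest at -0.62 ± 0.24 in fibrin (adjusted p = 0.085), and passed in none. Under the empirical null the calls of Abcc4 (adjusted p = 0.23), of Abcg2 in Matrigel (0.25) and collagen I (0.52) and of Abcc1 in the printed cultures (0.10) were lost.

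The cation exporter Slc47a1 (MATE1), which passes metformin and creatinine into urine, was measurable and rose in 2 gels. Its implied level was 1118 normalized reads in 2D and between 1610 and 2098 in the microenvironments. The authors' deposited tables gave log2 0.88 ± 0.20 in Matrigel (adjusted p = 8.5e-04) and 0.92 ± 0.25 in collagen I (adjusted p = 0.0059). Fibrin stood at 0.56 ± 0.29 (adjusted p = 0.25) and the printed cultures at 0.51 ± 0.29 (adjusted p = 0.53) in the authors' deposited tables. The collagen I call was lost under the empirical null (adjusted p = 0.41). No pair of microenvironments differed for Slc47a1 in the test of the difference given further on, with differences of -0.35 to 0.40. The related gene Slc47a2 was near 0 in all 4 tables.

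Slc22a4 was the only transporter that fell. The authors' deposited tables put it at log2 -1.42 ± 0.22 in fibrin (adjusted p = 1.5e-08) and -1.05 ± 0.25 in collagen I (adjusted p = 0.0011). It was at -0.38 ± 0.21 in Matrigel (adjusted p = 0.37) and -0.07 ± 0.25 in the printed cultures (adjusted p = 0.98) in the authors' deposited tables. The implied level was 3445 normalized reads in 2D, 1193 in fibrin and 1434 in collagen I, against 2749 in Matrigel and 3591 in the printed cultures. The collagen I call was lost under the empirical null (adjusted p = 0.24), the fibrin call was not (adjusted p = 2.6e-04). Slc22a4 lies at 53983115 to 54030040 on chromosome 11, next to the carnitine carriers Slc22a5 (53864542 to 53891796) and Slc22a21 (53949954 to 53980333). Neither neighbour passed in any table. In the authors' deposited tables Slc22a5 ran from -0.57 ± 0.23 in the printed cultures to -0.05 ± 0.19 in Matrigel, and Slc22a21 from -0.66 ± 0.27 in collagen I to -0.26 ± 0.24 in the printed cultures. Only 2.98% of the 50-base stretches of Slc22a4 occur in other genes, against 27.1% for Slc22a5 and 24.2% for Slc22a21.

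Anion and urate carriers of the Slc22a family were scarce, and 2 of them rose in Matrigel. Slc22a12, the apical urate exchanger URAT1, was at log2 1.20 ± 0.29 (adjusted p = 0.0018) and the anion carrier Slc22a7 at 0.96 ± 0.32 (adjusted p = 0.041) in the authors' deposited table for Matrigel. Their base means there were 129 and 41.6, and their log2 ratios of implied levels were larger, 1.82 for Slc22a12 and 1.95 for Slc22a7. The Slc22a7 call was lost under the empirical null (adjusted p = 0.27) and with adjustment over every gene (adjusted p = 0.055). Slc22a12 stood at -0.58 ± 0.39 in fibrin, 0.16 ± 0.37 in collagen I and 0.01 ± 0.32 in the printed cultures in the authors' deposited tables. Part of its exons, 682 bases of 2226, lies opposite exons of Nrxn2, and whether counting used the strand is not given. Slc22a13, a nicotinate and urate exchanger, was at 0.87 ± 0.32 (adjusted p = 0.082) in the authors' deposited table for Matrigel and did not pass. For Slc22a13, 36.0% of the 50-base stretches also occur in a pseudogene. Of the other measurable members of the family, Slc22a15, Slc22a17, Slc22a18, Slc22a19 and Slc22a23 passed in no table.

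Of the organic anion transporting polypeptides, Slco4a1, a thyroid hormone carrier, rose in all microenvironments. The authors' deposited tables gave log2 1.05 ± 0.21 in Matrigel (adjusted p = 4.1e-05), 1.25 ± 0.28 in fibrin (adjusted p = 3.2e-04), 1.25 ± 0.27 in collagen I (adjusted p = 2.0e-04) and 1.58 ± 0.29 in the printed cultures (adjusted p = 8.7e-06). Its implied level went from 693 normalized reads in 2D to 1418, 1666, 1533 and 3006 in the same order. The log2 ratio of implied levels in the printed cultures was 2.12, above the deposited value. Under the empirical null the collagen I call was lost (adjusted p = 0.16). Slco3a1, a prostaglandin and thyroxine carrier, rose in fibrin at 1.23 ± 0.32 (adjusted p = 0.0032) and was at -0.56 ± 0.25 in Matrigel, -0.21 ± 0.31 in collagen I and -0.00 ± 0.30 in the printed cultures in the authors' deposited tables. Slco5a1 rose in the printed cultures at 0.81 ± 0.25 (adjusted p = 0.046) in the authors' deposited table. Under the empirical null neither Slco3a1 (adjusted p = 0.12) nor Slco5a1 (adjusted p = 0.15) passed, and Slco5a1 did not with adjustment over every gene (adjusted p = 0.060). The abundant Slco2a1 did not pass anywhere, at -0.19 ± 0.22 to 0.34 ± 0.24 in the authors' deposited tables, and Slco1a6 did not either, at -0.26 ± 0.39 to 0.53 ± 0.37. Slco1a5, the last Slco gene with an adjusted p, passed in no table.

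The remaining members of the Abcb family that were measurable are pumps of mitochondria, lysosomes and the bile canaliculus, and none passed in any table. In the authors' deposited tables the mitochondrial genes Abcb6, Abcb8 and Abcb10 had base means of 2193 to 3109 and log2 fold changes of -0.27 to 0.36. Reads of Abcb6 are uncertain, since 66.8% of the 50-base stretches of its longest transcript also occur in the overlapping gene Gm29253. The bile salt pump Abcb11 had base means of 8.34 to 11.5 and the lysosomal peptide pump Abcb9 of 28.5 to 39.6 in the authors' deposited tables.

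Whether microenvironments differed from each other was tested by subtracting 1 log2 fold change from the other, with adjustment over all genes. Over 6 pairs with 35 or 36 members each, 6 differences in 5 genes had an adjusted p under 0.05. Between Matrigel and fibrin 2 of 36 members differed, against 1.13% of all genes. Slc22a12 was higher in Matrigel by log2 1.78 ± 0.49 (adjusted p = 0.027), and Slco3a1 was lower there, at -1.79 ± 0.40 (adjusted p = 0.0024). Between fibrin and the printed cultures 3 of 36 differed, against 1.40% of all genes, all of them lower in fibrin. These were Abcb1b at -1.48 ± 0.40 (adjusted p = 0.024), Abcb4 at -1.36 ± 0.39 (adjusted p = 0.034) and Slc22a4 at -1.35 ± 0.33 (adjusted p = 0.0057). Between Matrigel and the printed cultures 1 of 36 differed, against 0.612% of all genes, Abcb1b at -1.83 ± 0.39 (adjusted p = 0.0014).

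For the other 3 pairs no member passed this normal test. After adjustment 0.478% of all genes passed for Matrigel against collagen I, 0.548% for fibrin against collagen I and 0.890% for collagen I against the printed cultures. At an unadjusted p under 0.05 the first of these pairs had 7 of 35 members and 6.49% of all genes. The second had 2 of 35 members and 2.96% of all genes, and the third 2 of 35 members and 7.05% of all genes. Slc22a4 missed the threshold for Matrigel against fibrin, with 1.04 ± 0.30 and adjusted p = 0.053, and for collagen I against the printed cultures, with -0.97 ± 0.35 and adjusted p = 0.28. The 2 P-glycoprotein genes did not differ by this test between collagen I and the printed cultures, nor did Abcb4, at -0.45 ± 0.37 (adjusted p = 0.88). Both fold changes rest on the same 2D libraries, which by itself makes the summed standard error too wide and can hide differences. The spread of the test statistic, from the middle part of all genes, was 0.581 for fibrin against collagen I. It was 0.990 for Matrigel against collagen I and 1.04 for collagen I against the printed cultures, so the error was not too wide alike in all pairs.

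**Figure D4:**
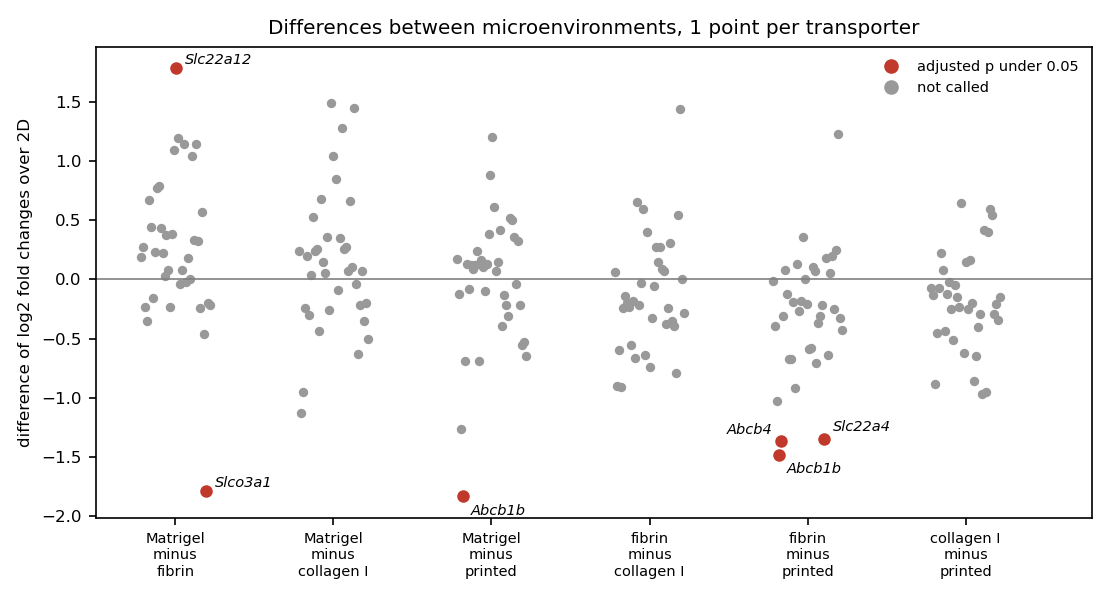
Difference of log2 fold changes over 2D for each of 6 pairs of microenvironments, 1 point per transporter. Red points had an adjusted p under 0.05 over all genes. The 6 red points are Slc22a12 and Slco3a1 for Matrigel minus fibrin, Abcb1b for Matrigel minus printed, and Abcb4, Abcb1b and Slc22a4 for fibrin minus printed.

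Genes that work with these transporters were read from 4 lists. These were chosen with earlier results of these data known, so a share above that of all genes is no independent support. Of 20 nuclear receptors and other regulators, 16 or 17 had an adjusted p. By DESeq2 0 rose in any table, against 2.51% to 6.51% of all genes. At an unadjusted p under 0.05, 2 were higher in Matrigel (9.33% of all genes) and 0 in the other 3 (7.42% to 12.6%). In fibrin and in collagen I 1 regulator fell, against 3.11% and 4.65% of all genes. The oxidant sensor Nfe2l2 (NRF2) was at 0.19 to 0.23 in the authors' deposited tables and passed in none. Nor did Hnf4a, whose introduced and own copies the tables do not separate. The xenobiotic receptor Nr1i2 (PXR) had base means of 14.1 to 26.0 and Nr1i3 (CAR) of 1.56 to 4.62 in the authors' deposited tables.

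Of 13 genes of ion gradients and scaffolds with an adjusted p, 3 rose in Matrigel (4.03% of all genes) and 0 fell (2.32%). Pdzk1, which anchors URAT1 and the OCTN carriers, was at log2 1.19 ± 0.21 (adjusted p = 1.3e-06), the scaffold Slc9a3r1 at 0.55 ± 0.17 (adjusted p = 0.020) and the sodium pump subunit Atp1b1 at 0.77 ± 0.22 (adjusted p = 0.012) in the authors' deposited table. Other scaffold and apical genes did not pass there: Ezr was at 0.42 ± 0.18 (adjusted p = 0.16), Pdzk1ip1 at 0.18 ± 0.21 (adjusted p = 0.78) and Slc9a3r2 at 0.14 ± 0.18 (adjusted p = 0.81) in the authors' deposited table. Differences between gels were not tested for this list. In collagen I the citrate carrier Slc13a2 fell to -1.13 ± 0.31 (adjusted p = 0.0049) in the authors' deposited table, and no other gene of the list passed in fibrin, collagen I or the printed cultures. At an unadjusted p under 0.05, DESeq2 had 0 higher and 4 lower in fibrin, against 11.1% and 8.26% of all genes. In the printed cultures it had 1 higher and 0 lower, against 7.42% and 4.01%.

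Other carriers of urate, nucleosides, peptides and bile acids had 19 to 21 genes with an adjusted p. In Matrigel 2 of 20 rose (4.03% of all genes) and 0 fell (2.32%). In fibrin 1 of 21 rose (5.19%) and 2 fell (3.11%). In collagen I 1 of 19 rose (6.51%) and 1 fell (4.65%), near the background. In the printed cultures 1 of 20 rose (2.51%) and 0 fell (0.675%). The phosphate and urate carrier Slc17a3 rose in Matrigel at log2 1.19 ± 0.23 (adjusted p = 2.8e-05), in collagen I at 0.88 ± 0.28 (adjusted p = 0.020) and in the printed cultures at 1.20 ± 0.25 (adjusted p = 1.7e-04) in the authors' deposited tables. Slc17a4 rose in Matrigel at 0.82 ± 0.20 (adjusted p = 0.0012) and in fibrin at 0.75 ± 0.23 (adjusted p = 0.020) in the authors' deposited tables. In fibrin the urate carrier Slc2a9 fell to -0.83 ± 0.27 (adjusted p = 0.029) in the authors' deposited table. The purine nucleoside carrier Slc28a2 fell, as Slc22a4 did, in 2 gels: to -1.39 ± 0.30 in fibrin (adjusted p = 2.1e-04) and -2.70 ± 0.31 in collagen I (adjusted p = 6.3e-15) in the authors' deposited tables.

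The last list held genes of conjugation and glutathione supply together with redox and heme enzymes. Since earlier results were known when it was chosen, an excess over the share of all genes may be partly built in. In Matrigel 8 of 16 of its genes with an adjusted p rose (4.03% of all genes), in fibrin 3 of 17 (5.19%), in collagen I 7 of 16 (6.51%) and in printed cultures 5 of 16 (2.51%), and 0 fell in any table. By DESeq2 0 were lower at an unadjusted p under 0.05 as well. Their median log2 fold change was 0.54, 0.31, 0.47 and 0.26 in this order. The quinone reductase Nqo1 was at 1.94 ± 0.18 in Matrigel, 1.12 ± 0.24 in fibrin, 2.39 ± 0.23 in collagen I and 1.40 ± 0.21 in the printed cultures in the authors' deposited tables. The glutathione transferase Gsta4 ran from 1.50 ± 0.28 in fibrin to 2.50 ± 0.25 in collagen I, and the glutathione reductase Gsr from 0.74 ± 0.20 in fibrin to 1.09 ± 0.20 in collagen I, in the authors' deposited tables, passing in all 4. In glutathione synthesis, the ligase subunit Gclc rose in all but fibrin, at 0.72 ± 0.22, 0.89 ± 0.23 and 0.81 ± 0.23, and Gclm in Matrigel at 0.80 ± 0.17 and collagen I at 0.87 ± 0.21 in the authors' deposited tables. Glutathione synthetase Gss rose in collagen I alone of the 4 authors' deposited tables, at 0.83 ± 0.23, and the heme oxygenase Hmox1 in collagen I at 1.05 ± 0.22 and in the printed cultures at 0.97 ± 0.20. Gstp1 at 0.55 ± 0.18, the glucuronosyltransferase Ugt2b34 at 0.77 ± 0.26 and the heme enzyme Cpox at 0.55 ± 0.17 rose in Matrigel in the authors' deposited table. These differences between tables were not tested.

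**Figure D5:**
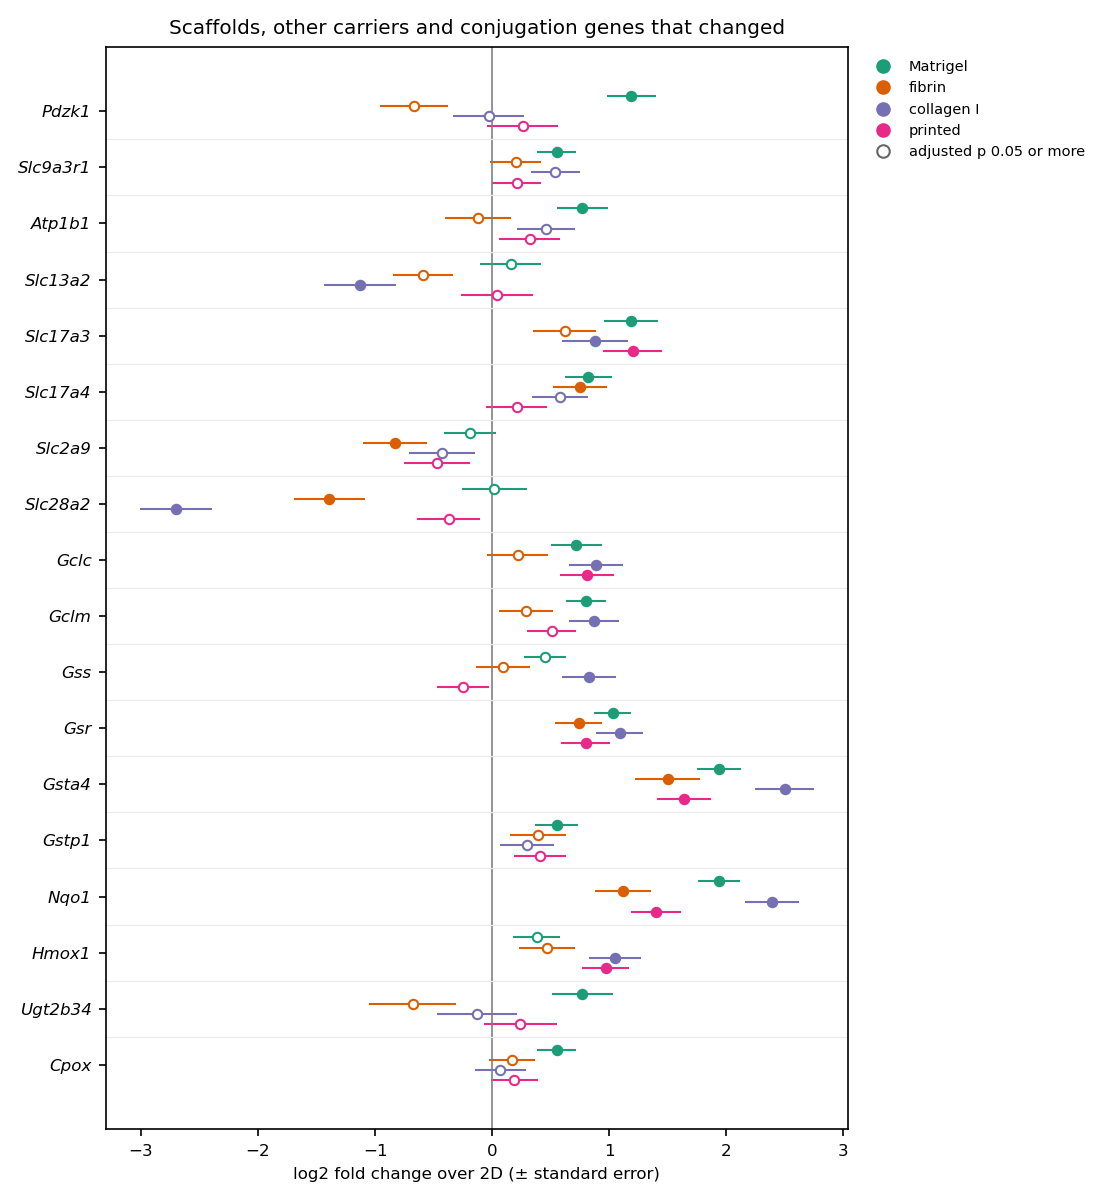
Deposited log2 fold change over 2D, with the authors' standard error, of scaffold, other carrier and conjugation genes that changed in at least 1 microenvironment. Filled points had an adjusted p under 0.05. Nqo1, Gsta4 and Gsr are filled in all 4 rows, and Slc28a2 in collagen I is the lowest point at -2.70.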

How the data were processed

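RNA of 15 iREC libraries, 3 for each of 5 groups, was sequenced by the authors. The authors' fits came from DESeq2 1.22.1, after alignment to mm10 by STAR 2.6.0b-1 and counting by featureCounts 1.6.3, with FastQC 0.72 and Trim Galore 0.4.3 before, per the submitters' processing notes. Strand, annotation and model terms were not given in the sources used here. Per the file headers, the base mean is a signal, the authors' mean of counts divided by size factors. The deposited fold changes and standard errors are log2 values. The deposited Wald statistic is a score, their ratio. The deposited p-values are two-sided, and adjusted ones are missing at low base means.

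No per-library values were used, so no test against 2D was refitted and no counting interval can be given; p-values measure the spread between cultures of 1 line. Differences between microenvironments were tested by dividing the difference by its standard error (both variances added), with p from the normal distribution, two-sided, adjusted by Benjamini-Hochberg over all genes with an adjusted p in both tables (scipy 1.17.1, pandas 2.3.3); the step was tested on simulated data. A level in 2D is 2 × base mean / (1 + fold change). A level in a microenvironment is 2 × its base mean minus the median 2D level of the other 3 tables. Exon lengths came from GENCODE M21 basic (GRCm38), matched for all 63 members, and coordinates and promoters from RefSeq GRCm38.p6. Repeated 50-base stretches were counted over GENCODE transcripts.

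The members and lists were chosen with earlier results of these data known. Named are members with an adjusted p under 0.05 in any table or pair, 25 transporters known from the renal tubule, and the 5 highest per kilobase. Alternatives were adjustment over every gene, a base mean minimum of 100, an empirical null, an adjusted p under 0.01, an absolute log2 fold change of 1, and ratios of implied levels. Some genes of the symbol rule and the lists are counted but not reported here by name.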

Additional observations from a re-analysis of the deposited data

Results flagged for a closer look

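In 6 cases the log2 fold change of a transporter over 2D differed between 2 microenvironments in a test of the difference itself, with adjustment over all genes. For Matrigel minus fibrin these were Slc22a12 at 1.78, the urate exchanger that rose in Matrigel, and Slco3a1 at -1.79, which rose in fibrin. For Matrigel minus the printed cultures it was Abcb1b at -1.83. For fibrin minus the printed cultures they were Abcb1b at -1.48, Abcb4 at -1.36 and Slc22a4 at -1.35. Slc22a12 has a base mean of 43.7 in fibrin in the authors' deposited table, the lowest of these 5 genes. Which libraries carry each difference cannot be read from tables with no value per library.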

How the results depend on the processing

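No paired analysis was possible because the tables hold no value per library, and for the same reason no replicate could be left out. Of the 24 calls of single transporters against 2D, 22 passed with adjustment over every gene with a p-value (Slc22a7 in Matrigel at adjusted p = 0.055 and Slco5a1 in the printed cultures at 0.060 did not), and 12 passed under the empirical null, in which the spread of the Wald statistics is taken from their own middle part (1.11 to 1.57). In collagen I only Abcb4 passed it. Under the empirical null the number higher was 5 in Matrigel, 1 in fibrin and 1 in collagen I, and the number lower in collagen I was 0, while of all genes tested 1.64%, 1.56% and 0.455% were higher and 0.583% lower; Slc22a4 had adjusted p = 0.24 there. An adjusted p under 0.01 left 5 higher in Matrigel and 3 in collagen I, and an absolute log2 fold change of 1 left 3 and 3. Another setting left the 2D variance out of the error of a difference, assuming an equal split of each variance between 2D and microenvironment. That split could not be checked. Under this setting 8 members differed for Matrigel against fibrin and 6 for Matrigel against collagen I. In that setting 3 differed for Matrigel against printed and 2 for fibrin against collagen I. For fibrin against printed 4 differed there, and for collagen I against printed 2. A base mean of 100 or more left 1 for Matrigel against fibrin. Shares of all genes were not computed at the stricter thresholds, with the 2D variance left out or at this base mean. Those counts therefore have no background beside them. The empirical null gave 3 for Matrigel against printed (1.62% of all genes) and 3 for fibrin against collagen I (3.75%). The cause of these shifts was not tested, except that the wider or narrower error is set by each alternative. No called value changed direction in any of these alternatives. Ratios of implied levels moved 24 of 87 single values by more than their standard error. Base means near 0 leave changes in Slc22a6, Slc22a8 and Slc22a2 undetectable here.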
